A study of Mus musculus with 3 samples.

Results

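Rab genes encode the small GTPases that give membranes of the cell their identity and direct vesicles between them. The genes described here are all those whose symbol is Rab followed by a number and at most a letter and a further digit. This gave 51 of the 20574 gene symbols in each deposited table. They were measured in primary mouse peritoneal macrophages by RNA sequencing, with 1 library for each of 3 conditions: cells with no coculture, cells kept for 5 h with apoptotic cells at 5 per macrophage, and cells given LPS, a bacterial cell-wall lipid sensed by Toll-like receptors, at 100 ng/ml for 5 h. All libraries are titled as wild type, and the culture medium was DMEM. The labels give no strain, age or number of animals, do not say which cells were made apoptotic, and give no time for the untreated library. Treatment therefore cannot be told apart from time in culture or handling, and with no replicates each difference is between libraries and has no p-value. In the apoptotic-cell library, any RNA of the added cells cannot be told apart from that of the macrophages.

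A Rab protein is switched on when an exchange factor loads it with GTP and off when a GTPase-activating protein speeds hydrolysis, while dissociation inhibitors and escort proteins carry its lipid-anchored form through the cytosol. On its membrane the active form recruits effectors such as tethers, motors and lipid kinases. In macrophages, a new phagosome carries Rab5 proteins first and Rab7 later as it matures towards the lysosome, and other members return receptors to the surface or carry newly made proteins from the endoplasmic reticulum and Golgi. Rab1, Rab5b, Rab7, Rab14, Rab21 and Rab22a were not analysed here, so the Rab5 to Rab7 switch itself is covered only by Rab5a and Rab5c.

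Values were taken as FPKM, fragments counted relative to transcript length and to sequencing depth, so levels can be set beside each other between genes. Where 3 values of a gene stand together without library names, their order is untreated, apoptotic cells, LPS. The libraries summed to 197222 to 200224 FPKM. Depth is not stated. The spacing of the lowest values implies roughly 6.06 to 6.38 reads for 1 FPKM on 2 kb of transcript, and counting intervals below rest on that estimate and on annotated lengths, so they are approximate and cover counting error only. Of the 51 Rab genes, 26 (50.98%) were above 0 untreated, 33 (64.7%) after apoptotic cells and 31 (60.8%) after LPS, against 32.8%, 38.7% and 38.1% of all symbols. Of 8 symbols fixed as macrophage markers, among them the old and new names of 1 gene, 3 were in the tables. Csf1r was listed at 56.3 FPKM untreated, 185 with apoptotic cells and 0 with LPS, while Fcgr1 and Mrc1 were at 3.29 FPKM or less throughout. Of 6 genes of large peritoneal macrophages, 5 were above 0 untreated, 1 with apoptotic cells (Cxcl13, at 364 FPKM) and 4 with LPS, and Gata6, which defines these cells, was above 0 with LPS alone (8.81 FPKM).

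A listed 0 was also found for genes that were well above 0 in the other libraries. Genes that exceeded 10 FPKM in the remaining pair were listed at 0 in 36.1% of cases untreated, 20.4% with apoptotic cells and 16.9% with LPS. The share differed with the number of annotated transcripts of the gene. Among genes above 1 FPKM in the remaining pair, the untreated library listed 18.5% of those with 1 transcript at 0, 34.3% of those with 2 to 4 and 53.5% of those with 5 or more. With apoptotic cells the shares were 8.35%, 14.2% and 23.7%, and with LPS 7.24%, 14.1% and 19.1%. Rab genes in the same classes were listed at 0 in 0 of 3, 3 of 10 and 3 of 6 cases in the untreated library, and only 9 of the 51 have 1 annotated transcript. For these reasons a Rab gene at 0 is reported as listed at 0, and ratios were formed only between libraries where the gene was above 0.

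By that measure 14 Rab genes were above 0 in all 3 libraries, 16 in 2 libraries, 16 in 1 library, and 5 (Rab9b, Rab17, Rab19, Rab26 and Rab36) in none. Those seen in 1 library comprised 3 seen untreated, 7 with apoptotic cells and 6 with LPS. Of the 46 Rab genes above 0 anywhere, 30.4% were above 0 in all 3 libraries, against 31.8% of all 11291 such symbols, so Rab genes were complete about as often as other genes. The plot of every Rab gene by library shows these patterns.

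**Figure D1:**
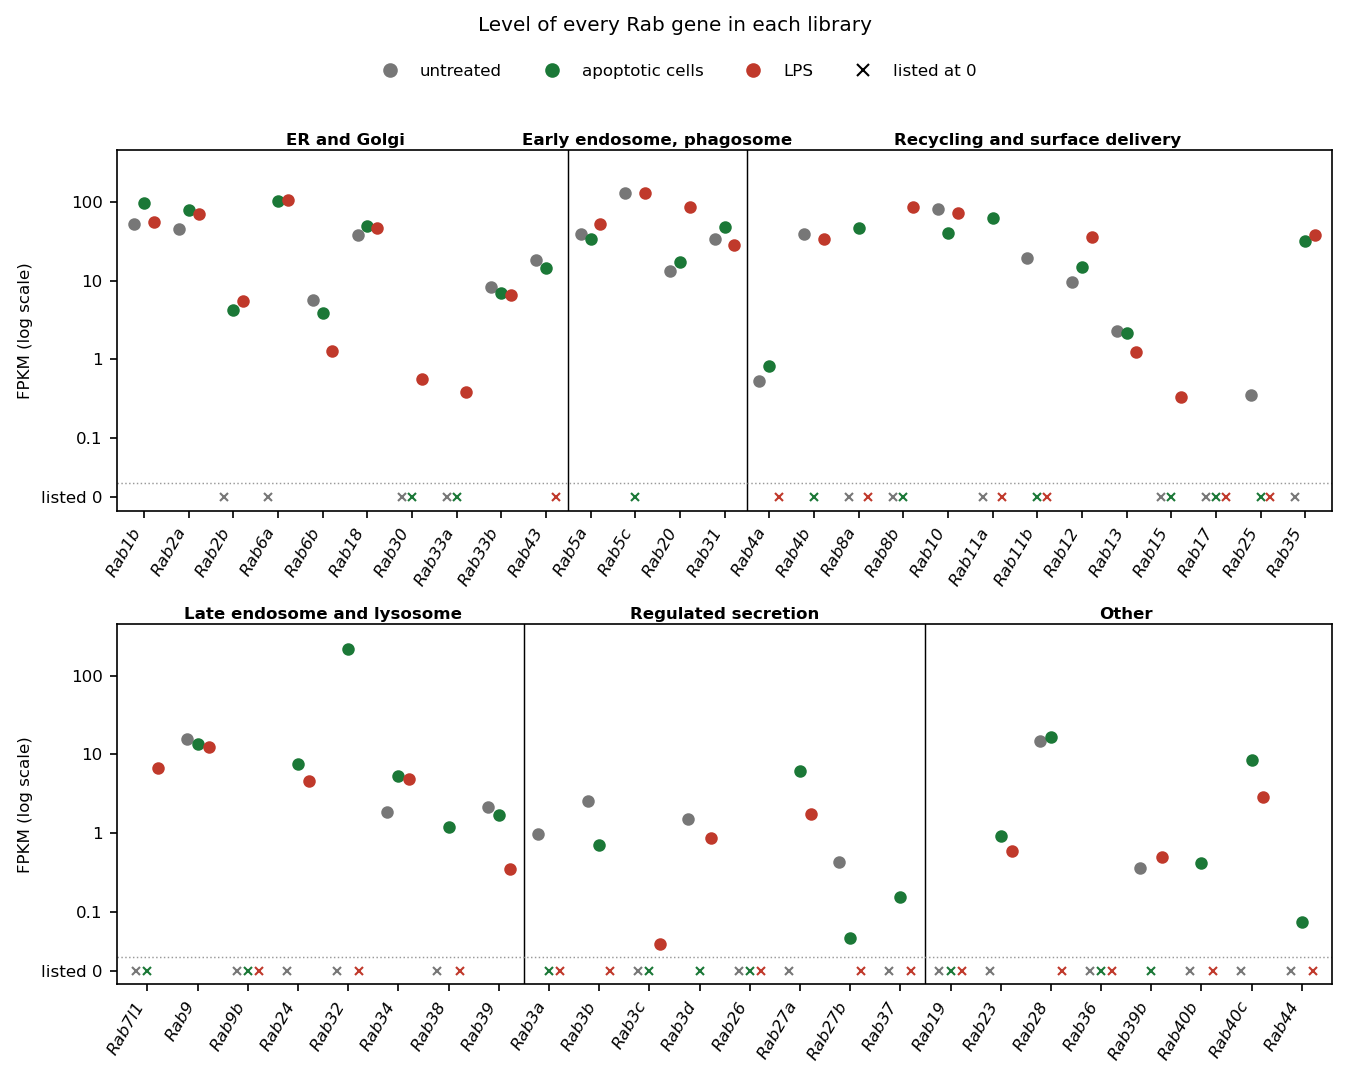
Level of each of the 51 Rab genes in the untreated (grey), apoptotic-cell (green) and LPS (red) libraries, in FPKM on a log scale, grouped by the membrane each gene is known for. A cross in the lowest strip is a listed 0. The highest point is Rab32 with apoptotic cells, at 216 FPKM, and regulated-secretion genes stay at 6.12 FPKM or less.

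The order of levels differed between libraries, in part through listed zeros. In the untreated library the 5 highest were Rab5c at 130 FPKM, Rab10 at 80.3, Rab1b at 52.5, Rab2a at 45.9 and Rab4b at 39.1, with Rab5a next at 39.003 and not separable from Rab4b. With apoptotic cells they were Rab32 at 216 FPKM, Rab6a at 103, Rab1b at 96.4, Rab2a at 77.9 and Rab11a at 63.1. With LPS they were Rab5c at 128 FPKM, Rab6a at 106, then Rab8b and Rab20, both at 84.9, and Rab10 at 73.1. Rab1b and Rab2a, which serve the exit from the endoplasmic reticulum and the passage to the Golgi, were thus among the 4 highest in the first 2 libraries and stood at 55.8 and 70.0 FPKM with LPS.

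With LPS, Rab20 and Rab12 stood far above their untreated levels, and Rab6b and Rab39 below. Rab20, which is found on phagosomes and early endosomes of macrophages, was listed at 13.2 FPKM untreated, 17.4 with apoptotic cells and 84.9 with LPS. The LPS library alone was high. The ratio of LPS to untreated was 6.42 (95% counting interval 4.77 to 8.86), or 2.60 in log2 units after adding 1 FPKM to each value, as throughout, which understates the differences of low genes. The gene lies on chromosome 8 from 11453518 to 11478710 in mm10.

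Rab12, which acts in the traffic of recycling receptors towards lysosomes, was listed at 9.66 FPKM untreated, 14.7 with apoptotic cells and 36.2 with LPS. The ratio of LPS to untreated was 3.75 (2.78 to 5.11), a log2 ratio of 1.81. The gene lies on chromosome 17 from 66494512 to 66519729. Rab34, which is linked to lysosome positioning and phagosome maturation, was listed at 1.87 FPKM untreated, 5.29 with apoptotic cells and 4.82 with LPS. Both treated libraries were above the untreated one, but its estimated 6 untreated reads leave the LPS ratio of 2.58 with an interval of 0.918 to 7.88 that includes no difference. Rab34 lies on chromosome 11 from 78188430 to 78192193.

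These 3 genes were the Rab genes at least 2-fold higher with LPS than untreated, and the sequence just before their annotated starts is shown for that reason alone. Rab34 was low in the LPS library and no lower with apoptotic cells. Each run is from RefSeq (GRCm38.p6), 5′ to 3′ on the gene's strand, and covers the part of the 250 bases before the RefSeq start that also lies before every GENCODE M21 start of the gene. Capitals mark the match to an AP-1 motif.
Rab20, chr8:11478711-11478890, minus strand: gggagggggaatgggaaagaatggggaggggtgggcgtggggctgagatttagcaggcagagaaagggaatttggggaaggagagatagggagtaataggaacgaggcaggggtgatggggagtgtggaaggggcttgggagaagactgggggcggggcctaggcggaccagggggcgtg
Rab12, chr17:66519730-66519920, minus strand: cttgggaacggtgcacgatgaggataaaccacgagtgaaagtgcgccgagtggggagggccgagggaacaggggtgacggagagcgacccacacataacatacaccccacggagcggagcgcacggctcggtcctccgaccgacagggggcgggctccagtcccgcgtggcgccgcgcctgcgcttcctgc
Rab34, chr11:78188177-78188426, plus strand: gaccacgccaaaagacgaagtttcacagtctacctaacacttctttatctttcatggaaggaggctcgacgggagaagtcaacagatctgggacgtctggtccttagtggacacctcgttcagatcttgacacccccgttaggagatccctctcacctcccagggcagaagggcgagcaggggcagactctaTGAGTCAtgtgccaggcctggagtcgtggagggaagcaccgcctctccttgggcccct

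Of the 51 Rab genes, 41 had RefSeq windows of 250 bases before a start, 52 windows in all. They were searched on both strands for a kappaB motif (kappaB by name), AP-1 (TGANTCA), the core of the interferon response element (GAAANNGAAA), CACGTG and the cAMP response element (TGACGTCA). Rab34 had an AP-1 match from 58 to 52 bases before its start, as did 6.75% of all 32851 windows. Rab20 had a CACGTG match from 46 to 41 bases before its RefSeq start, inside the longer GENCODE transcript and so outside the run shown, as did 6.02% of all windows. Rab12 had no match to these 5 motifs in its window. A kappaB match was present before Rab15 and Rab28 only, 3.85% of the Rab windows against 3.90% of all windows, and neither gene was above 0 in both the untreated and LPS libraries.

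Rab6b, a Golgi member best known from neurons, was listed at 5.60 FPKM untreated, 3.86 with apoptotic cells and 1.27 with LPS. The LPS library was lowest, 4.39-fold below the untreated one (interval 2.33 to 10.3, log2 ratio -1.54). It lies on chromosome 9 from 103111787 to 103185276, and Rab39 on the same chromosome from 53684110 to 53706232. Its close relative Rab6a, the main Golgi Rab of the pair, was listed at 0 untreated and at 103 and 106 FPKM in the libraries with apoptotic cells and LPS. Rab39, tied to late endosomes and autophagy, was listed at 2.12 FPKM untreated, 1.72 with apoptotic cells and 0.353 with LPS. Its LPS value stands for about 3 reads, and was 6.0-fold below the untreated value (1.79 to 32.2). Its relative Rab39b was listed at 0.361 FPKM untreated and 0.494 FPKM with LPS, and at 0 with apoptotic cells.

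In all, 16 Rab genes averaging 1 FPKM or more were above 0 in both the LPS and untreated libraries. Of them 3 were at least 2-fold higher with LPS (18.8%), where 8.51% of all 3421 such genes were, and 2 were at least 2-fold lower (12.5%), where 26.2% of all were. Their median log2 ratio was -0.08, against -0.40 for all genes, and turned to 0.54 with median-of-ratios scaling, which shifts both. On the deposited scale 13 of 16 lay above the median of all genes. Rab5c, at 130 and 128 FPKM, and Rab1b, at 52.5 and 55.8 FPKM, were nearly level between these libraries, with ratios of 0.983 (0.855 to 1.13) and 1.06 (0.807 to 1.42). Rab2a (1.53, interval 1.31 to 1.78) and Rab5a (1.34, interval 1.142 to 1.58) were higher with LPS by less than 2-fold. Median-of-ratios scaling moved the median of all genes by 0.53 in this comparison, 0.19 for apoptotic cells against untreated and -0.33 for apoptotic cells against LPS. It changed the shares of genes higher and lower to 19.1% and 12.8%, 16.1% and 12.5%, and 9.04% and 9.73% in the same order, so small ratios have no settled sign.

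**Figure D2:**
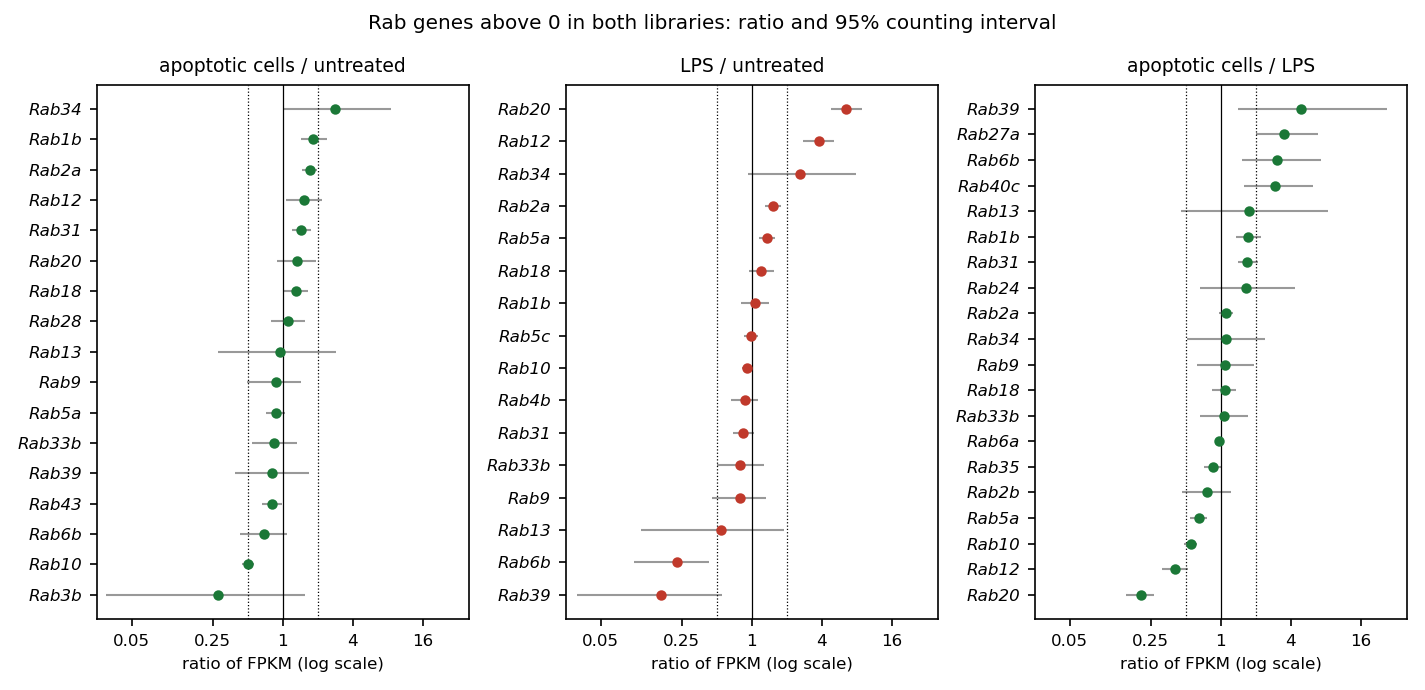
Ratio of FPKM (log axis) for each Rab gene averaging 1 FPKM or more and above 0 in both libraries, in 3 comparisons. Points are the ratios, bars approximate 95% counting intervals, the solid line no difference and dotted lines 2-fold. Rab20 and Rab12 lie beyond 2-fold with LPS against both other libraries.

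With apoptotic cells, Rab10 stood lower than in the untreated library and Rab1b and Rab2a higher. Rab10 carries cargo to the plasma membrane and also acts on early phagosomes. It was listed at 80.3 FPKM untreated, 40.1 with apoptotic cells and 73.1 with LPS. The apoptotic-cell library alone was low, 2.0-fold below the untreated one (interval 1.78 to 2.26). With 1 FPKM added the log2 ratio is -0.99, just short of the 2-fold count. In mm10 Rab10 lies on chromosome 12 from 3247428 to 3309969.

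The early secretory genes Rab1b and Rab2a were both higher by less than 2-fold. Rab1b was listed at 52.5 FPKM untreated and 96.4 FPKM with apoptotic cells, a ratio of 1.84 (1.43 to 2.38), and Rab2a at 45.9 and 77.9 FPKM, a ratio of 1.70 (1.46 to 1.97). Rab2b, the less abundant relative of Rab2a, was listed at 0 untreated, 4.24 FPKM with apoptotic cells and 5.54 FPKM with LPS. Rab18, found on the endoplasmic reticulum and lipid droplets, was listed at 38.5, 49.9 and 46.4 FPKM, within 1.30-fold of its untreated level. Rab43, a Golgi member, was listed at 18.0, 14.5 and 0 FPKM in the same order. Rab33b, a Golgi member also tied to autophagy, was nearly level at 8.31, 6.98 and 6.61 FPKM. Rab30 and Rab33a were above 0 with LPS alone, at 0.565 and 0.389 FPKM.

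Of 17 Rab genes that could be compared between apoptotic cells and no treatment, 1 passed 2-fold upwards and 1 downwards (5.88% each), against 12.4% and 16.4% of all 3369 such genes. The higher one was Rab34 (log2 ratio 1.13, ratio 2.84, interval 1.02 to 8.57). The lower one was Rab3b, listed at 2.53 FPKM untreated and 0.699 FPKM with apoptotic cells (log2 ratio -1.05), 3.62-fold below the untreated value. Its 7 and 2 estimated reads give an interval of 0.645 to 33.4 for that fold and do not separate the libraries. The median of the 17 was -0.05, against -0.13 for all genes on the deposited scale. With median-of-ratios scaling Rab3b had no value, and the median of 16 Rab genes was 0.21, against 0.06 for all genes. As this comparison and the one with LPS share the untreated library, the position of Rab34 in both is not independent.

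**Figure D3:**
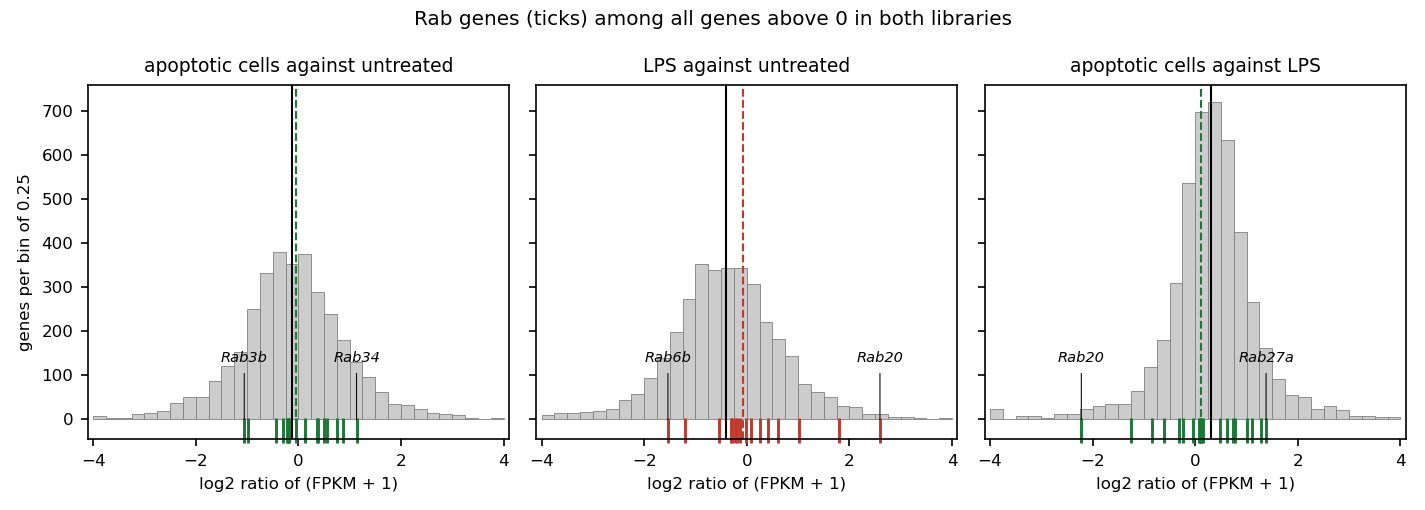
Histograms of the log2 ratio of (FPKM + 1) for all genes averaging 1 FPKM or more and above 0 in both libraries, with values beyond 4 gathered in the end bins. Ticks are Rab genes, the black line is the median of all genes and the dashed line that of the Rab genes. Most ticks lie in the centre, and Rab20 lies at 2.60 with LPS.

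Set directly against each other, the treated libraries shared 20 comparable Rab genes. Of them 4 were at least 2-fold higher with apoptotic cells, where 15.7% of all 4599 such genes were, and 2 were at least 2-fold higher with LPS, where 5.54% were. The first 4 were Rab27a, Rab40c, Rab6b and Rab39, and the other 2 were Rab20 (4.87-fold, interval 3.73 to 6.51) and Rab12 (2.47-fold, interval 1.91 to 3.22). Rab27a, which docks secretory lysosomes and related granules at the plasma membrane, was listed at 0 untreated, 6.12 FPKM with apoptotic cells and 1.73 FPKM with LPS, a ratio between the treated libraries of 3.53 (2.0 to 6.85). Rab40c, whose protein carries a box that binds ubiquitin ligases, was listed at 0, 8.37 and 2.85 FPKM in the same order, with a ratio of 2.94 (1.58 to 6.17). For Rab6b the ratio was 3.03 (1.53 to 7.28), and for Rab39, at about 3 reads with LPS, 4.86 (1.402 to 26.7). Rab40b was above 0 with apoptotic cells alone, at 0.422 FPKM. The median of the 20 was 0.12, against 0.32 for all genes on the deposited scale. With median-of-ratios scaling it was -0.26, against -0.02 for all genes.

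Shares within the family do not depend on how libraries are scaled. The 14 Rab genes above 0 in all libraries summed to 349 FPKM untreated, 412 with apoptotic cells and 474 with LPS. Rab20 made up 3.79%, 4.23% and 17.9% of these sums in that order, and Rab12 2.77%, 3.57% and 7.64%. Rab10 made up 23.0%, 9.73% and 15.4%, and was the largest of the 14 in the untreated library only. Rab1b, at 15.1%, 23.4% and 11.8%, was the largest with apoptotic cells, and Rab20 with LPS. Rab31, which acts between the Golgi and endosomes, was largest in share with apoptotic cells (9.67%, 11.7% and 6.02%).

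**Figure D4:**
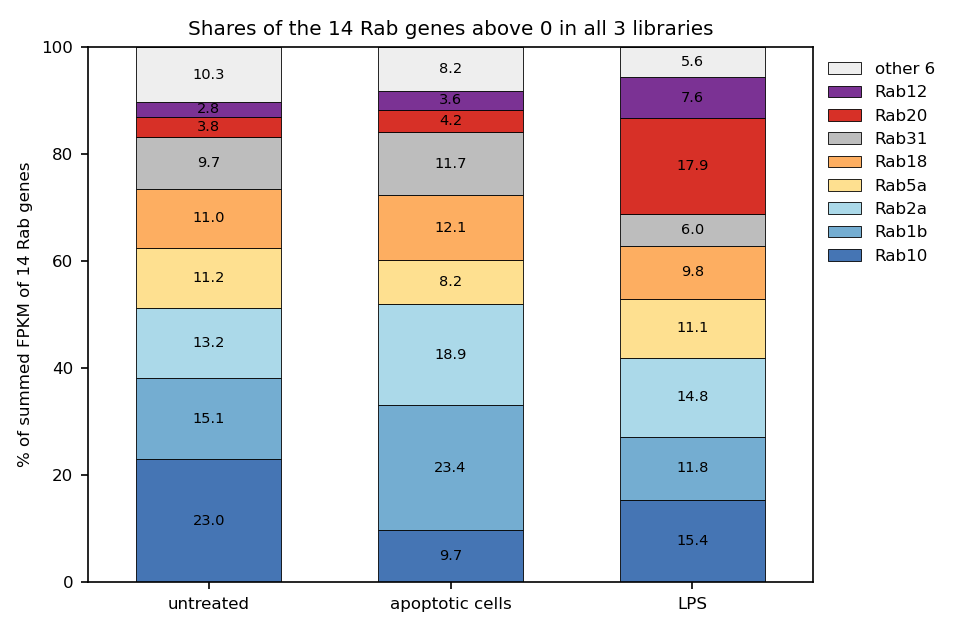
Share of each gene in the summed FPKM of the 14 Rab genes above 0 in all 3 libraries, as stacked bars from 0 to 100%, with the remaining 6 genes pooled. Rab20 takes 17.9% with LPS against 3.79% untreated, and Rab10 takes 9.73% with apoptotic cells against 23.0% untreated.

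On early endosomes, Rab5a, which drives fusion of endosomes and young phagosomes, was listed at 39.003, 33.8 and 52.5 FPKM, highest with LPS. Rab5c stood at 130 FPKM untreated and 128 FPKM with LPS, and was listed at 0 with apoptotic cells, where no ratio was formed. Rab31 was listed at 33.7, 48.3 and 28.5 FPKM, 1.43-fold higher with apoptotic cells than untreated (1.19 to 1.73).

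Among recycling genes, several close relatives were listed at 0 in different libraries. Rab8a and Rab8b, which both drive delivery to the plasma membrane, were above 0 in 1 library each, Rab8a at 47.2 FPKM with apoptotic cells and Rab8b at 84.9 FPKM with LPS. Rab11a and Rab11b, the markers of the recycling endosome, were listed at 63.1 FPKM with apoptotic cells and 19.4 FPKM untreated respectively, and at 0 elsewhere. Rab4b, of the fast recycling route, was listed at 39.1 FPKM untreated and 33.9 FPKM with LPS but 0 with apoptotic cells, while Rab4a was at 0.826 FPKM or less in every library. Rab35, another recycling gene, was listed at 0, 32.1 and 37.9 FPKM. Rab13, which serves surface delivery, was low throughout, at 2.27, 2.16 and 1.24 FPKM. Rab15 (0.330 FPKM, LPS) and Rab25 (0.352 FPKM, untreated) were above 0 once.

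In all, 11 Rab genes were listed at 0 in 1 or 2 libraries and at 10 FPKM or more in another. They were Rab4b, Rab5c, Rab6a, Rab8a, Rab8b, Rab11a, Rab11b, Rab28, Rab32, Rab35 and Rab43. No difference is read from these zeros.

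Among genes of late endosomes and lysosome-related organelles, Rab32 held the highest value of any Rab gene. This gene, which serves the making of lysosome-related organelles and acts on mitochondria and in defence against bacteria, reached 216 FPKM with apoptotic cells, about 1305 reads, and was listed at 0 untreated and with LPS. It has 2 annotated transcripts and lies on chromosome 10 from 10545002 to 10558265. Its closest relative Rab38 reached 1.18 FPKM with apoptotic cells and was listed at 0 elsewhere, and Rab7l1, the older symbol of Rab29, at 6.67 FPKM with LPS and 0 elsewhere. Rab9, which returns receptors from late endosomes to the Golgi, was close to level at 15.7, 13.6 and 12.5 FPKM. Rab24, linked to autophagy, was listed at 0, 7.48 and 4.52 FPKM.

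Genes of regulated secretion were low. Apart from Rab27a they reached at most 2.53 FPKM, in Rab3b. Of the genes that act on secretory granules, Rab3a was listed at 0.982, 0 and 0 FPKM, Rab3b at 2.53, 0.699 and 0 FPKM, and Rab3d at 1.53, 0 and 0.876 FPKM. The ratios that could be formed for them did not separate the libraries beyond counting error. Rab27b was listed at 0.433, 0.0467 and 0 FPKM. Rab3c and Rab37 stayed at or under 0.155 FPKM. Each of these low values, Rab27a aside, stands for about 10 reads or fewer. Markers of mast cells, which are rich in granules, were lower in both treated libraries. With apoptotic cells 4 of the 5 that could be compared were at least 2-fold below the untreated level, where 16.4% of all genes were. With LPS 5 of 5 were, where 26.2% of all genes were. The 7 genes of that list summed to 103, 19.8 and 9.82 FPKM, with Ms4a2 at 0 throughout, Cpa3 at 0 with apoptotic cells and Hdc at 0 with LPS. In bulk RNA, fewer cells of a type and less RNA per cell cannot be told apart, and the part of mast cells in these values was not tested.

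Markers of other cells differed between libraries beside all the Rab values. The 8 T-cell and thymocyte genes summed to 29.6, 87.7 and 1.141 FPKM, all 8 above 0 with apoptotic cells, led by Rag1 at 41.2 FPKM. Untreated, 5 of the 8 were listed at 0, Rag1 and Cd3e included. The 3 above 0 in both libraries were not higher with apoptotic cells, with Dntt at 13.5 and 13.0 FPKM, Cd3g at 12.6 and 10.6 FPKM and Cd4 at 3.48 and 1.80 FPKM. The 7 B-cell genes summed to 86.1, 154 and 117 FPKM, but 5 of them, Cd79a included, were listed at 0 untreated. The comparable pair was lower in both treated libraries, Blnk at 82.7, 38.4 and 18.5 FPKM and Cr2 at 3.44, 0.0965 and 0.198 FPKM. The 5 neutrophil genes summed to 53.5, 137 and 224 FPKM, and these sums were mostly S100a8, at 48.1, 116 and 222 FPKM. With LPS, S100a9 and Ngp were listed at 0. Mmp8 was lower with LPS than untreated (2.48 to 0.548 FPKM) and Camp higher (0.713 to 2.33 FPKM). The 4 mesothelial and fibroblast genes summed to 17.8, 1.70 and 1.13 FPKM, led by Dcn. Their part in the Rab differences was not tested. The remaining genes were Rab28, of cilia, at 14.9, 16.5 and 0 FPKM, Rab23, also ciliary, at 0, 0.905 and 0.589 FPKM, and Rab44, at 0.0735 FPKM with apoptotic cells alone.

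The machinery that acts on Rab proteins was taken from lists of carriers, exchange factors, tethering complexes, GTPase-activating proteins and effectors, 143 genes in all. Between apoptotic cells and no treatment, 0 of 32 comparable genes were at least 2-fold higher, where 12.4% of all genes were, and 2 were lower (6.25%, where 16.4% of all were). The lower ones were the exchange factor gene Dennd3 (3.41 to 0.190 FPKM) and the Golgi tether gene Golgb1 (4.42 to 1.19 FPKM). Their median log2 ratio was -0.03, against -0.13 for all genes. With LPS 1 of 34 was higher (2.94%, where 8.51% of all genes were) and 9 were lower (26.5%, where 26.2% of all genes were), around a median of -0.46 that lay close to the -0.40 of all genes. The higher one was Micall2, an effector of surface delivery, at 1.52 and 4.36 FPKM, named after its value was seen. By list, 0 of 6 GTPase-activating protein genes, 0 of 4 carriers and 0 of 3 Golgi effectors were at least 2-fold lower with LPS. Their median log2 ratios were -0.68, 0.01 and -0.55 in that order. The GTPase-activating protein genes and Golgi effectors thus also tended to be lower, by less than 2-fold. Among effectors of recycling and secretion 5 of 7 were at least 2-fold lower (median -1.16), where 26.2% of all genes were. That list was singled out after its values were seen. Its lower genes were led by Mical3 (5.98 to 0.222 FPKM) and Sytl3 (2.31 to 0.140 FPKM), a partner of Rab27. The others lower included Hps1, part of the exchange factor for Rab32 and Rab38 (13.6 to 4.67 FPKM), and Trappc6a, of the TRAPP tether (15.8 to 3.13 FPKM). Also lower were Pik3c3, the endosomal lipid kinase (9.85 to 3.36 FPKM), and Plin3, a late endosome partner of Rab9 (25.4 to 9.38 FPKM).

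Between the treated libraries, 3 of 58 comparable genes passed 2-fold downwards with apoptotic cells (5.17%, against 5.54% of all genes) and 6 upwards (10.3%, against 15.7%), around a median of 0.39 against 0.32 for all genes. Rabgef1, an exchange factor for Rab5, was listed at 0 untreated, 8.04 FPKM with apoptotic cells and 29.6 FPKM with LPS (log2 ratio of apoptotic cells to LPS -1.76). Rab11fip1, an effector of Rab11, was listed at 0, 1.16 and 33.3 FPKM (-3.99). Also at least 2-fold lower was Dennd2d, at 2.82, 1.46 and 4.22 FPKM (-1.08). The higher ones were Plin3 (1.92), the Rab5 effector gene Appl2 (1.44), Trappc1 (1.31), Ehd4 (1.23), Tbc1d8b (1.12) and Trappc2l (1.05).

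Zeros were frequent among these partners too. The dissociation inhibitor gene Gdi2, whose protein extracts Rab proteins from membranes, was above 0 with LPS alone, at 89.1 FPKM. The escort gene Chm was nearly level at 8.996, 7.58 and 7.52 FPKM. Eea1, the Rab5 tether, was listed at 11.7 FPKM untreated and 0 elsewhere. Mon1a and Ccz1, which together load Rab7, read 5.83 and 27.1 FPKM with apoptotic cells, 0 untreated for both, and 2.45 and 0 FPKM with LPS. Rilp, the effector that couples Rab7 to dynein, was listed at 1.12, 2.42 and 0 FPKM.

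The Arf and Arl genes, another family of small GTPases in membrane traffic, were placed beside the Rab genes. Of Arf and Arl genes, 2 of 7 were at least 2-fold higher with apoptotic cells than untreated, Arf4 (80.5 to 236 FPKM) and Arl11 (1.139 to 10.9 FPKM), and 0 lower, where 12.4% of all genes were higher and 16.4% lower. Their median was 0.61. With LPS, 0 of 9 Arf and Arl genes passed 2-fold in either direction, where 8.51% of all genes were higher and 26.2% lower. No test sets this family apart from the Rab genes.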

How the data were processed

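RNA of 3 libraries was analysed. The values the authors deposited were taken as FPKM. The unit is not named; the submitters' processing notes give cutadapt 1.14, TopHat2 2.1.0, Cufflinks 2.2.1, Cuffdiff and the build mm10. No source used here gives the options, the annotation or the strandedness, so reads of near-identical or overlapping genes may be mixed.

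Members and lists were chosen with earlier results of these data known. Log2 ratios with a pseudocount of 1 were computed for genes averaging 1 FPKM or more across libraries and above 0 in both libraries compared, with pandas 2.3.3 and scipy 1.17.1. A 2-fold difference was counted as a description. Read numbers were estimated from the spacing of low values of genes with 1 transcript in GENCODE M21 (0.314, 0.323 and 0.330 FPKM per read on 1 kb after an offset of 200, 200 and 150 bases), using the median length of coding transcripts. Low values fitted whole reads only loosely, so the estimated reads of low genes, and the intervals that rest on them, are rough. Ratio intervals are exact conditional binomial intervals of those reads. Lengths were found for 98.1% of symbols and all 51 Rab genes. Steps were tested on simulated data. Named in full were Rab genes past 2-fold, the 5 highest per library and those listed at 0 but at 10 FPKM or more elsewhere; relatives are given together. From partner lists at most 4 genes past 2-fold per list were named, with fixed ones. Rabggta and Rabggtb were not analysed here, and some results of the lists are not reported here.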

Additional observations from a re-analysis of the deposited data

How the results depend on the processing

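With 1 library per group, no replicate was left out and no replicate error is known. No paired analysis was possible because each group has 1 library. Of the alternatives, only scaling can turn the sign of a single gene's ratio. No sign turned among the 13 ratios past 2-fold of single Rab genes in the values that median-of-ratios, upper-quartile and total-sum scaling gave, except that Rab3b had no value under the first. Over all alternatives 14 of 104 values were under 2-fold. With median-of-ratios scaling the log2 ratios of LPS to untreated were 3.19 for Rab20 and 2.39 for Rab12.

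Counts were small and moved easily. For apoptotic cells against untreated, the count higher was 1, and 0 with a pseudocount of 5, with a mean of at least 5 FPKM or at a 4-fold threshold, 2 with median-of-ratios scaling, 3 at 1.5-fold and 10 with zeros used as values. The count lower was 1, and 2 with a pseudocount of 0.1 or at 1.5-fold, 4 with zeros used as values, and 0 with a pseudocount of 5, a mean of at least 5 FPKM, median-of-ratios scaling, genes above 0 in all 3 libraries or 4-fold. For LPS against untreated, the count higher was 3, and 5 with median-of-ratios scaling, 11 with zeros used as values, 4 at 1.5-fold, 1 at 4-fold, and 2 with a pseudocount of 5 or a mean of at least 5 FPKM. The count lower was 2, and 1 with median-of-ratios scaling, 6 with zeros used as values, and 0 with a pseudocount of 5, a mean of at least 5 FPKM or 4-fold. For apoptotic cells against LPS, the count higher was 4, and 1 with median-of-ratios scaling, 3 with upper-quartile scaling, 2 with genes above 0 in all 3 libraries, 7 at 1.5-fold, 9 with zeros used as values, and 0 with a pseudocount of 5, a mean of at least 5 FPKM or 4-fold. The count lower was 2, and 4 with median-of-ratios scaling or at 1.5-fold, 6 with zeros used as values and 1 at 4-fold. With median-of-ratios scaling the median of Rab genes changed sign in every comparison. It went from 0.12 to -0.26 for apoptotic cells against LPS and from -0.08 to 0.54 for LPS against untreated. For apoptotic cells against untreated it went from -0.05 to 0.21, where Rab3b had no value, so part of that move can come from its loss. The median of that comparison was 0.25 with a mean of at least 5 FPKM. Partner medians with zeros used as values were 0.72 for apoptotic cells and 0.39 for LPS against untreated, where zeros of the untreated library enter as low values.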
